A study of Mus musculus with 2 samples.

Results

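The zinc finger genes Zfp900 to Zfp999 were defined as the protein-coding genes of the GENCODE M21 annotation of mm10 whose symbol is Zfp followed by a number in this range. The rule found 63 of the 21951 protein-coding genes, and no measured value entered it. Accessible chromatin at these genes was read from scFFPE-ATAC, a single-cell assay for transposase-accessible chromatin adapted to formalin-fixed paraffin-embedded tissue, in 2 libraries of spleen from C57BL/6J mice aged 8 weeks. The tissue was fixed in formalin for 16 h. The sources give no genotype or treatment beyond the strain, and do not say which animal, or of which sex, was behind each library. One library was prepared from nuclei that were not purified by density gradient centrifugation, and the other in a Tn5 reaction system of 50 µL. The sources do not state whether the 50 µL library passed through the gradient, and the standard reaction of the study was 100 µL, without the volume being given for the other library by itself. Each condition was therefore 1 library, no difference between the conditions could be tested, and the intervals given are exact 95% binomial intervals that cover counting error only.

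Zinc finger proteins of this family read DNA through tandem C2H2 fingers, most of which are encoded by a single long 3′ exon. Many also carry an N-terminal KRAB domain, which binds the corepressor TRIM28 and through it the histone methyltransferase SETDB1, and a large part of the family is known for silencing transposable elements. The genes arose by tandem duplication, lie in clusters of close relatives, and their zinc finger exons are known in several cell types as sites of H3K9me3, a mark of compact chromatin. In the annotation, 53 of the 63 genes lay in a cluster, defined as 3 or more zinc finger genes with gaps of at most 200 kb, and 20 of the 45 such clusters of the genome held at least 1 of them. A C2H2 pattern was found 4 or more times in the protein of the longest coding sequence of 57 genes, 1 to 3 times in 3 genes (Zfp978, Zfp979 and Zfp993) and not at all in 3 genes (Zfp935, Zfp957 and Zfp972). Zfp974 had the most copies, 21, and the median was 11. A match to a 15-residue KRAB-like pattern with at most 2 differences was found in 59 of 63 proteins, and the exceptions were Zfp956, Zfp957, Zfp972 and Zfp974. The same loose pattern matched 301 of the 566 genes with 4 or more C2H2 patterns and 716 of all 21951, so a match does not by itself identify a KRAB domain.

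The sequences below are the 200 bases upstream of the RefSeq start site (GRCm38.p6, the assembly behind mm10) of 6 genes, printed 5′ to 3′ along the gene with CpG dinucleotides in capitals. Zfp956, Zfp994, Zfp950 and Zfp933 are shown because their promoters held some of the most significant peaks, and Zfp985 and Zfp967 because no peak was called there in either library.
Zfp956, chr6:47953190-47953389, plus strand: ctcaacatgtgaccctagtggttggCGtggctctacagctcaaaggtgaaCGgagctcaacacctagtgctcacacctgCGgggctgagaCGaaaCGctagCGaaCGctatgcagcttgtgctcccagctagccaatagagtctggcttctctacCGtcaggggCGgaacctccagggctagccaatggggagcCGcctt
Zfp994, chr17:22225615-22225814, minus strand: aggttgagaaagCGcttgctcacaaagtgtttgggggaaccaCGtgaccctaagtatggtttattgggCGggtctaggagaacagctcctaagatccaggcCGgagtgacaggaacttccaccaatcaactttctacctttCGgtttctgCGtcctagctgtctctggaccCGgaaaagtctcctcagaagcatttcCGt
Zfp950, chr19:61140841-61141040, minus strand: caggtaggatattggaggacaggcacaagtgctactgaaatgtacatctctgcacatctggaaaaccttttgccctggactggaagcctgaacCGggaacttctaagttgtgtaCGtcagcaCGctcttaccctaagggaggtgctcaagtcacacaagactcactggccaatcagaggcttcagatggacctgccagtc
Zfp933, chr4:147848419-147848618, minus strand: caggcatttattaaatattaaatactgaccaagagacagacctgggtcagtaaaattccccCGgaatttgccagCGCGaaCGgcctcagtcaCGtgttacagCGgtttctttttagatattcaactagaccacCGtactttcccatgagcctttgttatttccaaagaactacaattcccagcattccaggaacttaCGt
Zfp985, chr4:147553077-147553276, plus strand: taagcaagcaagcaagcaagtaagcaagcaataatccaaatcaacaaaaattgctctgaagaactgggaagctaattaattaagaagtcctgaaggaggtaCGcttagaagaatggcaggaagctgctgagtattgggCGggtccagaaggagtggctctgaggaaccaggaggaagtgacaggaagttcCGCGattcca
Zfp967, chr2:176520804-176521003, plus strand: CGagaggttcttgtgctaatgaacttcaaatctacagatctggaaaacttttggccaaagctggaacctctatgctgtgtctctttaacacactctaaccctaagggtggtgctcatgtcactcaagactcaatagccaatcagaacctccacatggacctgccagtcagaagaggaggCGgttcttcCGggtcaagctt
These windows held 10 CpG dinucleotides at Zfp956, 8 at Zfp994, 3 at Zfp950, 8 at Zfp933, 4 at Zfp985 and 3 at Zfp967. In the same window the median was 6 CpG (1 to 15) over the 29 genes in the RefSeq table with a promoter peak in both libraries and 3 (1 to 6) over the 19 with none, so the ranges overlapped. Of the 63 genes, 53 were in the RefSeq promoter table, and the sequences of all 53 matched the genome at their coordinates.

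The list of the library without density gradient centrifugation held 25343 peaks with a median fold enrichment of 5.24, and the list of the 50 µL library held 89382 peaks with a median of 3.29. Fold enrichment is the pileup at the summit over the local background that MACS2 estimated, and q is its false discovery rate. Both depend on sequencing depth, which is unknown because the lists hold no read or cell numbers, so their levels are set side by side only within a library. The lists pool all cells of a library, and a promoter open in few cells cannot be told apart from one weakly open in many. The tissue label was set beside marker genes. Peaks within 1 kb of a start site were found at 4 of 8 B cell, 3 of 8 T cell and 1 of 6 myeloid markers without the gradient, and at 8 of 8, 7 of 8 and 4 of 6 in the 50 µL library, including Cd79b, Cd3d and Spic in both. Over all protein-coding genes the shares were 43.6% and 56.6%, so the counts without the gradient were near or below the background and do not check the label in that library. Markers of tissues other than spleen had such a peak at 1 of 8 genes (Ckm) and at 2 of 8 (Ckm and Gfap). The peaks at Ckm, a muscle creatine kinase, had fold enrichments of 6.71 and 7.02, and their source was not tested.

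Promoter peaks, taken as peaks that overlapped the 1 kb on either side of an annotated start site, were called at 32 of the 63 genes without the gradient and at 36 in the 50 µL library. The shares were 50.8% (37.9 to 63.6) and 57.1% (44.0 to 69.5), beside 43.6% and 56.6% of all protein-coding genes, so the whole set lay near the background. The 302 other genes named Zfp and a number stood higher, with 70.9% (65.4 to 75.9) and 84.8% (80.2 to 88.6), intervals that did not overlap those of the 63 genes. After the 50 µL list was cut to its 25343 most significant peaks, 30 of the 63 genes (47.6%) kept a promoter peak beside 45.2% of all genes. The 6 genes that dropped out were Zfp931, Zfp937, Zfp944, Zfp947, Zfp972 and Zfp976.

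The average over the set hid an uneven distribution along the genome. Among the 16 genes on chromosome 4, a promoter peak was called at 1 gene in each library (6.25%, 0.158 to 30.2). Among the 10 genes in the distal clusters of chromosome 2, it was called at 1 gene without the gradient (10.0%, 0.253 to 44.5) and at 3 in the 50 µL library (30.0%, 6.67 to 65.2). At the other 37 genes the counts were 30 (81.1%, 64.8 to 92.0) and 32 (86.5%, 71.2 to 95.5). The regions poor in peaks were taken out of this group and not out of the other Zfp genes, so the shares cannot be compared with theirs. Neighbours in a cluster are related copies, and the intervals treat them as independent genes.

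**Figure D1:**
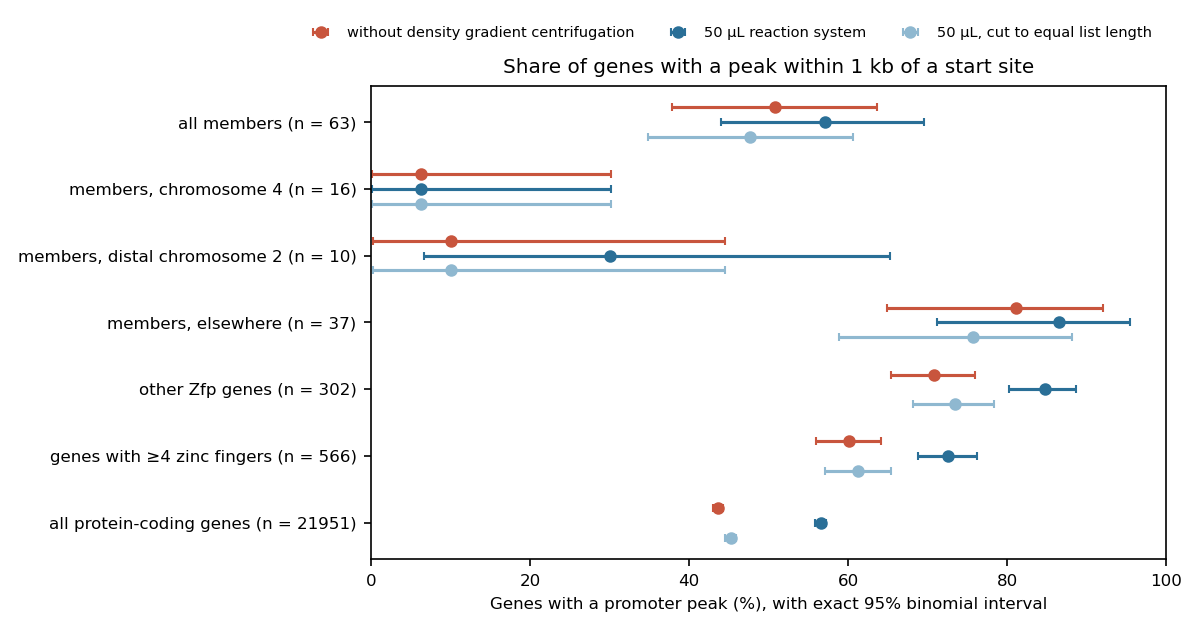
Share of genes with a peak within 1 kb of an annotated start site (x axis, percent) for 7 gene classes (y axis, number of genes in brackets); each point is 1 list (no gradient, 50 µL, and the 50 µL list cut to 25343 peaks), and bars are exact 95% binomial intervals. The genes of chromosome 4 sit at 6.25% in all 3 lists, while members outside chromosome 4 and distal chromosome 2 lie between 75.7% and 86.5%.

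Of the 63 genes, 31 had a promoter peak in both libraries, 5 in the 50 µL library only, 1 in the library without the gradient only and 26 in neither. The strongest promoter without the gradient was that of Zfp956 on chromosome 6, with a fold enrichment of 11.5 and a −log10 q of 48.0. Its peak spanned 512 bp with the summit 9 bp downstream of the start. In the 50 µL library the same promoter had a fold enrichment of 5.88 and a −log10 q of 52.6. Zfp956 encodes 6 fingers and was 1 of the 4 genes whose protein missed the KRAB pattern.

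In the 50 µL library the most significant promoter peak lay on chromosome 13 (chr13:62558233-62559076), with a fold enrichment of 9.11 and a −log10 q of 94.5. In the other library the peak there had a fold enrichment of 10.6 and a −log10 q of 45.5, the second most significant of the set. It overlapped annotated starts of Zfp934 and of Zfp935, whose transcripts overlap on the same strand, and cannot be assigned to one of them. RefSeq placed the start of Zfp935 91699 bp further downstream, and a separate peak lay over that site too, with fold enrichments of 8.65 without the gradient and 7.54 in the 50 µL library. That peak is also at starts of Gm22256 and Gm49359. Around the 5′-most start, 37.6% (Zfp935) and 38.5% (Zfp934) of the 50-base windows occurred once in the genome. For Zfp934 that start lies 12470 bp from the summit without the gradient. Inside the peak itself the share was 46.9% without the gradient and 46.2% in the 50 µL library, so near-identical copies share part of the sequence.

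Behind these came Zfp958, Zfp963 and Zfp932 without the gradient, with fold enrichments of 7.76, 8.81 and 8.72 and −log10 q of 33.3, 32.6 and 29.7. All 3 also had a promoter peak in the 50 µL library, with fold enrichments of 4.05, 5.13 and 6.18. Zfp950, Zfp953, Zfp961, Zfp994 and Zfp938 completed the 10 most significant peaks, with −log10 q between 24.6 and 28.5. In the 50 µL library the order differed, and Zfp994 (fold enrichment 7.45, −log10 q 83.5), Zfp950 (7.47 and 82.8), Zfp983 (6.89 and 73.7), Zfp938 (7.19 and 62.8) and Zfp933 (5.66 and 62.6) followed the Zfp934 and Zfp935 peak. Zfp945, Zfp952, Zfp963 and Zfp956 had −log10 q of 58.1, 54.1, 53.9 and 52.6. The peaks of Zfp956, Zfp963, Zfp950, Zfp994, Zfp938 and the pair Zfp934 and Zfp935 stood among the 10 most significant in both lists.

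Where a promoter peak was present, its fold enrichment was at the median no lower than that of other genes. The median fold enrichment of the most significant promoter peak was 6.61 over the 32 genes without the gradient, beside 5.72 over all 9580 genes with one. In the 50 µL library it was 4.89 over 36 genes beside 4.51 over 12415. The median −log10 q was 19.1 beside 13.6 without the gradient, and 39.6 beside 40.0 in the 50 µL library, where the other Zfp genes had 42.6. Levels varied within the set from 3.21 (Zfp945) to 11.5 without the gradient and from 3.23 (Zfp944) to 9.11 in the 50 µL library. Summits lay close to annotated starts, at a median distance of 102.5 bp without the gradient and 120 bp in the 50 µL library, and within 250 bp for 28 of 32 and 31 of 36 genes.

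**Figure D2:**
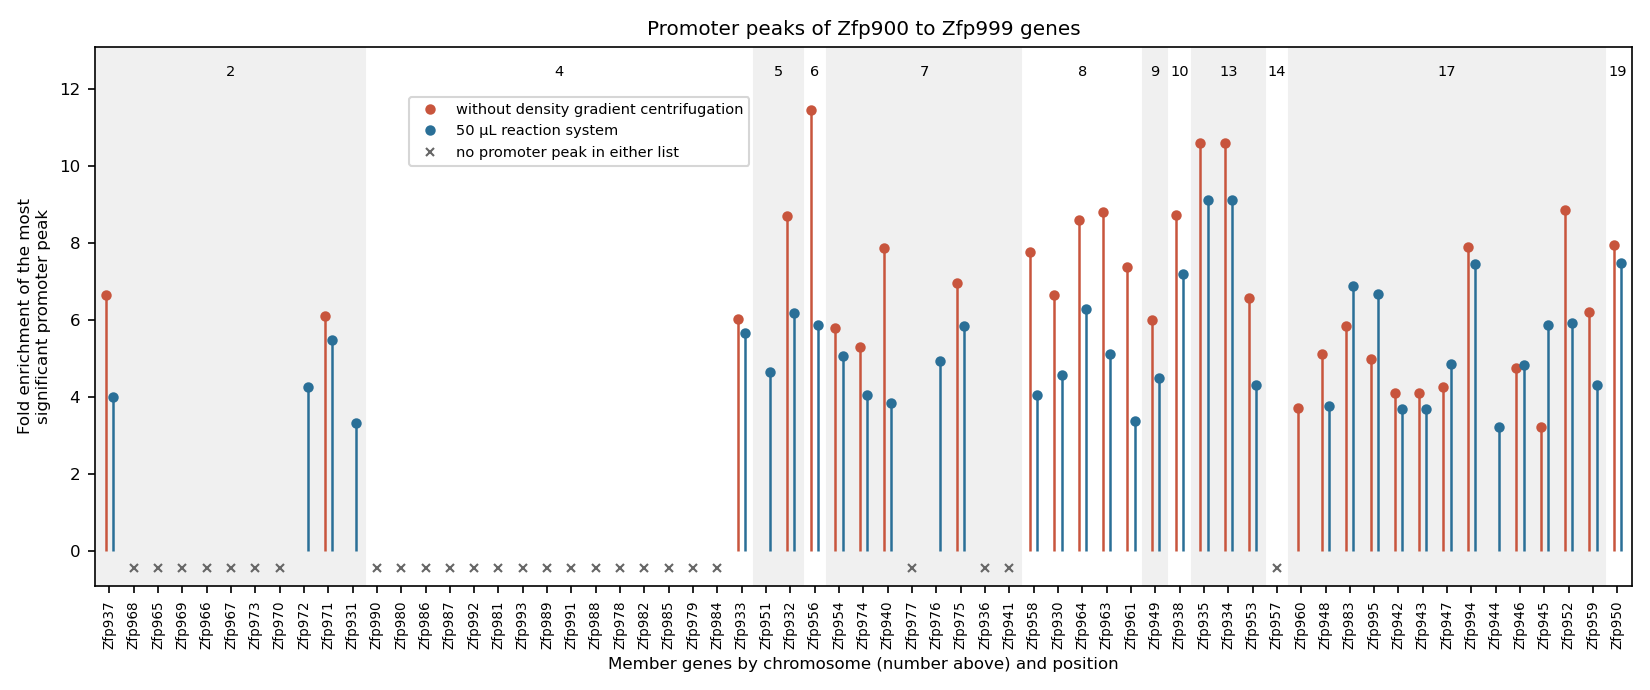
Fold enrichment (y axis, linear, no unit) of the most significant promoter peak of each of the 63 genes (x axis, ordered by chromosome and position) in the library without density gradient centrifugation and in the 50 µL library; crosses mark genes with no promoter peak in either list. On chromosome 4 Zfp933 alone has peaks, at 6.03 and 5.66, and 15 crosses stand beside it.

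The 1 gene with a promoter peak without the gradient and none in the 50 µL library was Zfp960 on chromosome 17. Its peak was weak, with a fold enrichment of 3.72 and a −log10 q of 3.32, the lowest of the set, and 35.6% of the 50-base windows inside the peak were unique. The 5 genes with a promoter peak in the 50 µL library only were Zfp951 (fold enrichment 4.66), Zfp976 (4.94), Zfp972 (4.25), Zfp931 (3.32) and Zfp944 (3.23). At Zfp951 the most significant peak had its summit 1290 bp downstream of the 5′-most start, and it had 3 promoter peaks in all. Since the 50 µL list was the longer one, a gene seen in that list only is not evidence of a difference between the preparations.

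Several promoter peaks lay at more than one gene. Of the 35 distinct promoter peaks without the gradient, 8 were also within 1 kb of a start of another gene, and of the 47 in the 50 µL library 10 were. Zfp942 and Zfp943, which lie head to head on chromosome 17, shared 1 peak without the gradient (fold enrichment 4.12) and 2 in the 50 µL library (3.68 and 3.38). Zfp944 shared its peaks with its divergent neighbour Zfp758. The peaks of Zfp932, Zfp940, Zfp953, Zfp954 and Zfp983 lay also at starts of 1010001B22Rik, Gm26554, Gm17039 and Gm28044, Gm44697 and CAAA01141682.2. Without peaks of this kind, 23 and 27 genes had a promoter peak. Of the 35 peaks without the gradient 34 overlapped a peak of the 50 µL list (97.1%). Of the 47 in the 50 µL list 29 overlapped one of the other list (61.7%). Overlap between the lists and sharing with another gene were not counted over all promoter peaks. These shares therefore describe the set and cannot be called particular to it.

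The 15 genes of chromosome 4 without a promoter peak were Zfp978 to Zfp982 and Zfp984 to Zfp993, and they had none in their gene bodies either. The zinc finger genes there stretched over 2.34 Mb (chr4:145510759-147848366), in 3 clusters separated by gaps of over 200 kb, with 20 zinc finger genes of which 16 belonged to the set. Each list held 1 peak in the whole region, 0.428 per Mb, beside 9.30 and 32.7 peaks per Mb over chromosomes 1 to 19, X and Y. That peak was the promoter peak of Zfp933, the last gene of the region, at chr4:147847827-147848886 in the 50 µL list. In the library without the gradient its fold enrichment was 6.03 with a −log10 q of 16.9. Zfp933 differed from its neighbours in sequence, with a unique share of 99.4% where the 15 others ranged from 4.00% (Zfp979) to 76.1% (Zfp985), and with a CpG observed/expected ratio of 0.492 where the others ranged from 0.139 (Zfp986) to 0.308 (Zfp991).

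Distal chromosome 2 (chr2:175010241-178078476) held 36 zinc finger genes in 2 clusters, 10 of them from the set, and 4 peaks without the gradient and 7 in the 50 µL library. All of these lay in the last 153 kb of its 3.07 Mb, and 33 of the 36 zinc finger genes ended before the first peak of either list. The last of these was Zfp972, whose promoter held the first peak of the 50 µL list. Zfp965, Zfp966, Zfp967, Zfp968, Zfp969 and Zfp973 had no 50-base window that was unique within 1 kb of their start, and none had a peak in either list. Zfp970 had no peak either. Zfp971 had a promoter peak in both libraries, with fold enrichments of 6.12 and 5.48 at a unique share of 42.4%. Zfp931 and Zfp972 had one in the 50 µL library, at unique shares of 19.7% and 25.6%. Zfp937, which lies apart from them on the same chromosome, had peaks in both, with fold enrichments of 6.65 and 4.00.

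Proximal chromosome 17 (chr17:21383748-22456689) differed from both. It held 19 zinc finger genes, 9 of them from the set, in 1.073 Mb. Without the gradient 26 peaks were called there (24.2 per Mb) and in the 50 µL library 67 (62.4 per Mb), denser than the genome in each list. Of the 9 genes, Zfp942, Zfp943, Zfp946, Zfp947, Zfp948, Zfp983, Zfp994 and Zfp995 had a promoter peak in both libraries and Zfp944 in the 50 µL library.

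**Figure D3:**
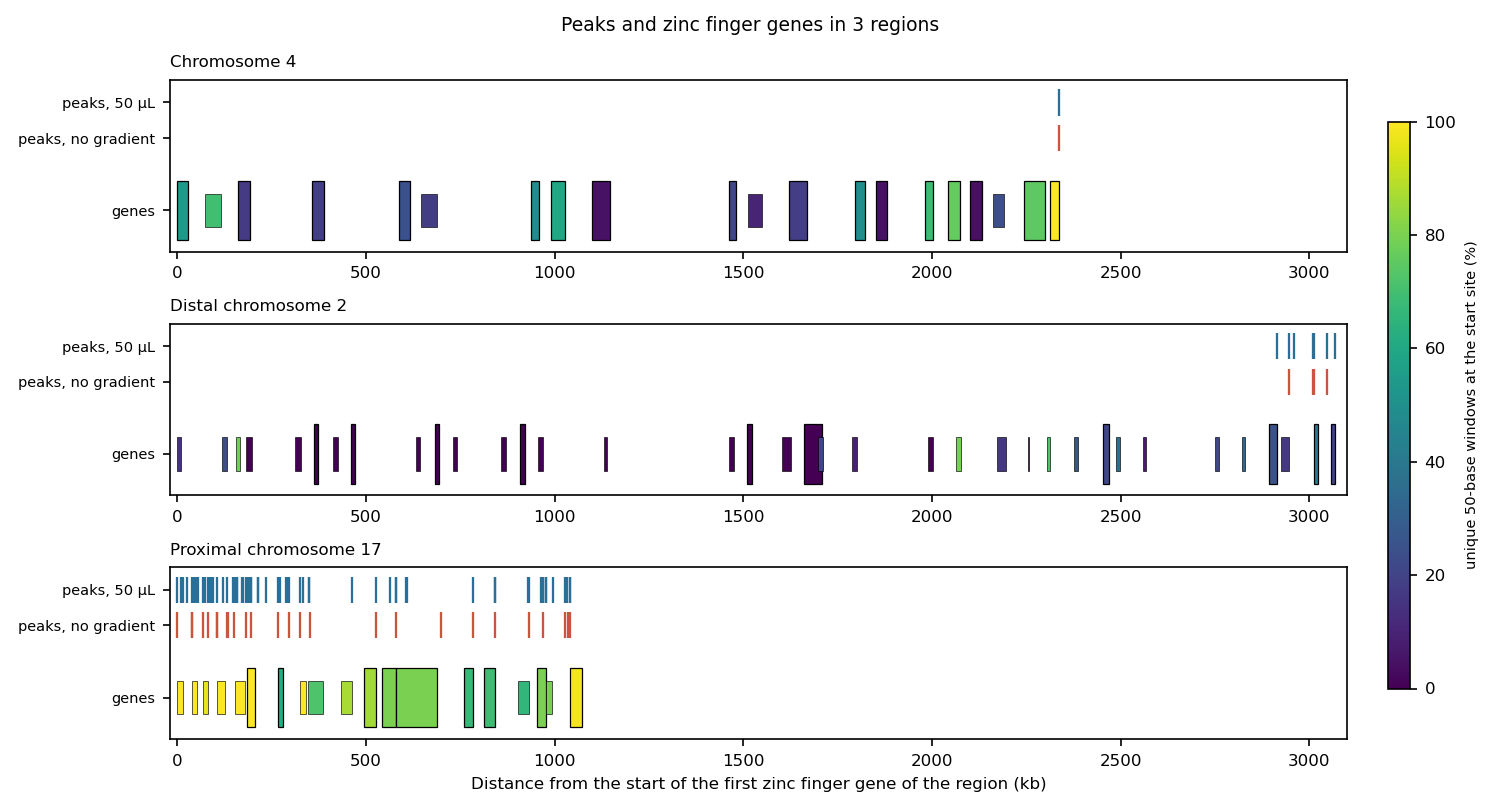
Zinc finger genes (boxes, tall for the 63 genes and low for other zinc finger genes, coloured by the share of unique 50-base windows within 1 kb of the start) and peak summits (ticks) in 3 regions, by distance in kb from the first gene of each. Chromosome 4 holds 1 peak in each list, distal chromosome 2 holds 4 and 7 at its end, and proximal chromosome 17 holds 26 and 67.

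A read that matches several places has no certain origin, and the sources do not say whether such reads were kept. The lists were therefore read beside a measure of repeated sequence. This was the share of 50-base windows within 1 kb of the 5′-most start that occur once in the primary assembly. Its median was 69.1% over the 63 genes, 99.97% over the other Zfp genes and 100% over all protein-coding genes. It was under 50% at 22 of the 63 genes, beside 6 of 302 and 1221 of 21951. The genes with a promoter peak in either list had a median unique share of 80.4% (19.7 to 100) and those without a median of 21.1% (0 to 100). Over all protein-coding genes, none of the 322 with a unique share of 0 had a promoter peak in either list, and 2.38% and 4.18% of those under 50% had one. Among the 22 genes of the set under 50% the counts were 3 (13.6%, 2.91 to 34.9) and 5 (22.7%, 7.82 to 45.4). Both counts include Zfp934 and Zfp935, which share a single peak in each list. Zfp934 was also classed by its 5′-most start, which lies away from that peak. Peaks without any unique window were nearly missing from the lists, with 2 of 25343 and 7 of the 89215 whose sequence was searched.

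Not every gene without a peak had a low unique share. Of the 41 genes with a unique share of at least 50%, 29 (70.7%, 54.5 to 83.9) had a promoter peak without the gradient and 31 (75.6%, 59.7 to 87.6) in the 50 µL library. Of these, the 35 outside chromosome 4 had one at 28 (80.0%) and 30 (85.7%), and the 6 on chromosome 4 at 1 (16.7%, 0.421 to 64.1). Zfp981, Zfp982, Zfp984, Zfp985 and Zfp990 on chromosome 4 had unique shares from 53.7% to 76.1% and no peak. The same held for Zfp936 (70.7%) and Zfp977 (73.7%) on chromosome 7. The authors also kept reads shorter than 50 bases. Over windows of 31 bases the shares of these genes were lower, from 29.6% (Zfp990) to 52.6% (Zfp977). The unique share was measured at the GENCODE start, and RefSeq placed the start 12893 bp away for Zfp981 and 63361 bp away for Zfp936, with no peak there either. Zfp941 on chromosome 7 was unique throughout and Zfp957 on chromosome 14 at 98.8%, and neither had a promoter peak, although both had peaks further inside the gene. With the 3 clusters of chromosome 4 scaled to the 0.552 Mb of their sequence that was unique, they held 1.81 peaks per Mb in each list, where the 2 of distal chromosome 2 held 11.7 and 20.5. The cluster of proximal chromosome 17 held 30.2 and 77.7. The value for chromosome 4 rests on 1 peak, and the genome was not scaled in the same way. The part of repeated sequence in the missing peaks was not tested.

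CpG content moved with the peaks too. The CpG observed/expected ratio was measured within 500 bp of the 5′-most start. Its median was 0.430 over the 37 genes with a promoter peak in either list and 0.270 over the 26 without. The ranges, 0.150 to 0.778 and 0.139 to 0.402, overlapped. The median was 0.362 over the 63 genes, 0.646 over the other Zfp genes and 0.552 over all protein-coding genes. Among genes with a unique share of at least 50%, a promoter peak was called at 3 of 9 genes of the set with a ratio under 0.3 in each library, beside 12.8% and 24.3% of all protein-coding genes of that kind. Of these 9 genes, 5 lay on chromosome 4, with ratios from 0.1735 (Zfp990) to 0.2727 (Zfp984), and had no promoter peak. Outside it 3 of 4 had one in each library, and Zfp957, with a ratio of 0.2027, had none. Those 3, Zfp983, Zfp947 and Zfp950, had the highest ratios of the 9, from 0.2876 to 0.2942, close to the cut of 0.3. Whether CpG content or location accounts for this was not tested. At a ratio of at least 0.3 it was called at 26 of 32 (81.2%) and 28 of 32 (87.5%), beside 60.8% and 75.3%. Zfp942 had the highest ratio, 0.778, and Zfp986 the lowest. The G+C content ran from 43.1% at Zfp978 and Zfp979 to 60.6% at Zfp959.

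**Figure D4:**
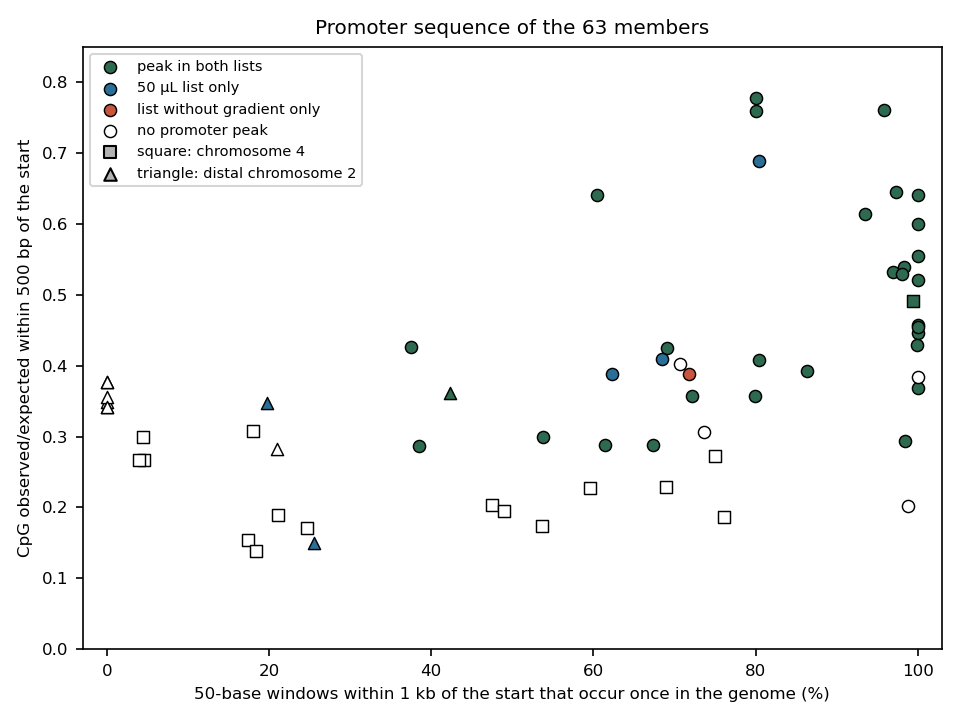
Each of the 63 genes by the share of 50-base windows within 1 kb of its start that occur once in the genome (x axis, percent) and its CpG observed/expected ratio within 500 bp (y axis); colour gives the lists with a promoter peak, squares mark chromosome 4 and triangles distal chromosome 2. Genes without a peak (open symbols) reach a CpG ratio of at most 0.402, and the open symbols at 98.8% and 100% are Zfp957 and Zfp941.

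The zinc finger exon was then examined, taken as the coding exon that holds most C2H2 patterns. In the 57 genes with 4 or more patterns it was the last coding exon in 56 (Zfp941 being the exception), held all patterns of the protein, and had a median coding length of 1303 bp. No peak of either list touched it in any of the 57 genes (0%, 0 to 6.27), beside 1.41% and 2.12% of all 566 genes with 4 or more patterns. The interval includes both background shares. The 76524 bp of these exons were repeated in part, with a median unique share of 68.2%. The nearest peak of the 50 µL list came within 461 bp at Zfp943, 509 bp at Zfp954 and 681 bp at Zfp961, and the smallest distance without the gradient was 4498 bp, at Zfp959. When the untranslated part of the last exon was included, Zfp954 and Zfp961 had a peak there in the 50 µL list and no gene in the other.

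Gene-body peaks further than 1 kb from any annotated start were called at 5 genes without the gradient (7.94%, 2.63 to 17.6) and at 13 in the 50 µL library (20.6%, 11.5 to 32.7), beside 18.8% and 42.3% of all protein-coding genes. In the 50 µL list cut to equal length it was 3 genes (4.76%, 0.993 to 13.3) beside 18.9%. The other Zfp genes had 12.6% without the gradient, 42.7% in the 50 µL library and 13.9% at equal length. Without the gradient the interval of the set includes their share. The genes of the set were not shorter, with a median length of 22.7 kb beside 17.4 kb. Per Mb of gene length the set held 3.76 and 17.7 such peaks, beside 6.96 and 36.5 over all genes. Without chromosome 4 and distal chromosome 2, whose genes had none, the values were 5.94 and 28.01. All 7 of these peaks without the gradient lay in introns and overlapped a peak of the 50 µL list. Of the 33 in the 50 µL library 29 lay in introns, 3 in exons and 1 had its summit past the gene end, at Zfp954.

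Zfp950 on chromosome 19 had the most, with 3 such peaks without the gradient and 10 in the 50 µL library. The strongest of them lay 56085 bp downstream of its start (chr19:61084236-61085302 in the 50 µL list), with fold enrichments of 6.46 and 6.32. Zfp961 followed with 1 and 5, Zfp948 with 1 and 3, Zfp944 with 1 and 3 and Zfp957 with 1 and 3. Zfp957 had an intron peak 3580 bp from the start without the gradient and 3635 bp in the 50 µL library, with fold enrichments of 5.04 and 3.92, and none at its promoter. Zfp949 had 1 in the 50 µL library, 13807 bp from its start, with a fold enrichment of 6.32 and a −log10 q of 40.0. Zfp941 had 1 there, 12638 bp from its start and 1789 bp from its zinc finger exon, with a fold enrichment of 5.11.

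**Figure D5:**
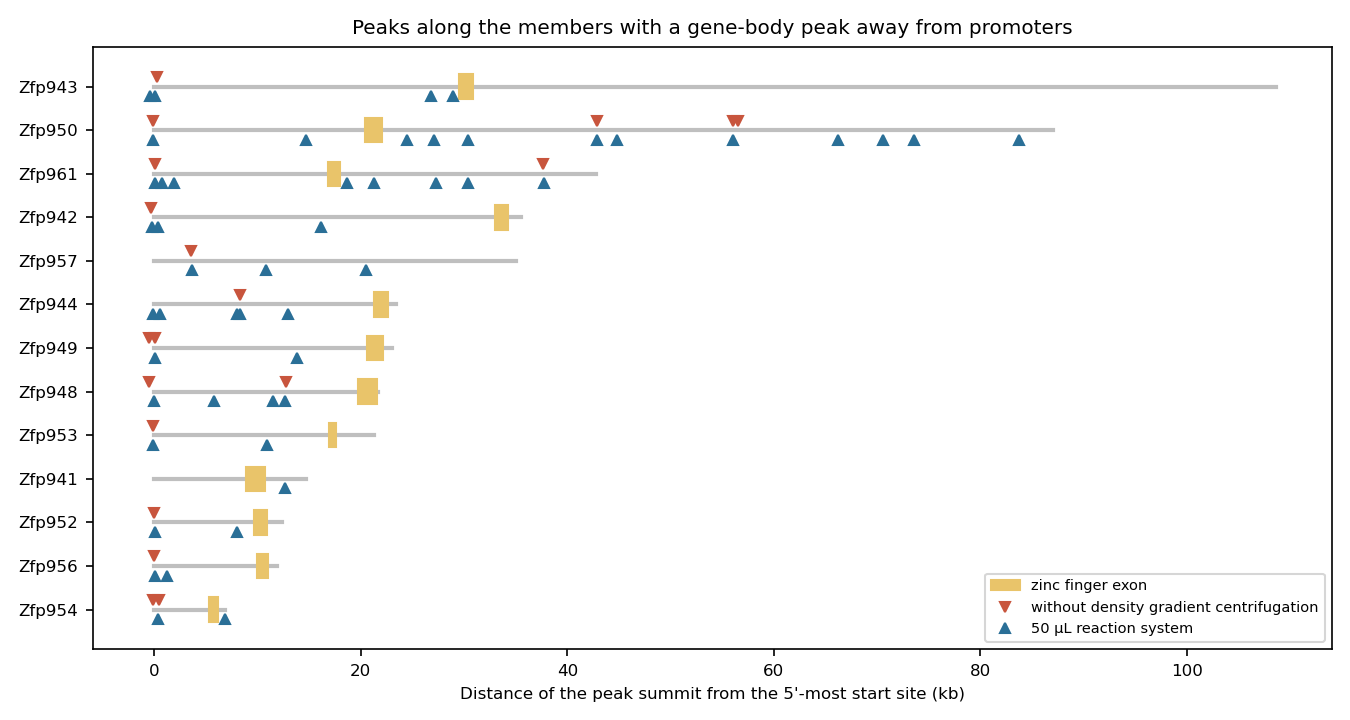
Peaks along the 13 genes with a gene-body peak away from promoters, by distance of the summit from the 5′-most start in kb (x axis); grey lines are gene bodies, yellow blocks zinc finger exons, and triangles summits in the library without density gradient centrifugation (pointing down) and the 50 µL library (pointing up). No summit falls in a zinc finger exon, and Zfp950 carries the longest series.

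Promoter sequence was compared within the set over the 250 bases before and 50 after the 5′-most start. The promoters of 6 genes were letter for letter those of another gene, namely Zfp967 and Zfp969, Zfp965 and Zfp973, and Zfp978 and Zfp979. Zfp968 differed from Zfp965 and Zfp973 by 1 base in 300 (99.7% identity). None of these 7 genes had a promoter peak. Zfp985, printed above, was 84.0% identical to Zfp978 and Zfp979 without gaps, and Zfp982 85.7% identical to Zfp989.

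Short motifs were counted on both strands of the same windows. A match describes letters and not binding. The CCAAT letters were in 47 of the 63 promoters (74.6%), beside 39.0% of all 21951. They stood in 24 of the 37 genes with a promoter peak and in 23 of the 26 without. The GC box letters GGGCGG were in 22 (34.9%, beside 43.0%), of which 12 were on chromosome 4, all without a peak. CCGGAAG, a core of ETS sites, was in 16 (25.4%, beside 10.8%). Among these were Zfp965, Zfp966, Zfp967, Zfp968, Zfp969 and Zfp973, the genes of distal chromosome 2 without a unique window. Related copies are counted as separate promoters in all of these shares. TATAAA was in none of the 63 and in 12.6% of all promoters. The joined letters ATTGGGCGG, a reversed CCAAT overlapping a GC box that was noticed in the printed sequences, occurred in 11 of the 63 and in 76 of all promoters (0.346%). Of the 11 genes, 10 lay on chromosome 4 and had no peak, and the other was Zfp994, with the second most significant promoter peak of the set in the 50 µL library. Zfp985 and Zfp994, both printed above, carry these letters from 68 and 138 bases before the RefSeq start.

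KRAB domains act through a common corepressor machinery. Of 22 genes listed for it, 21 had a promoter peak without the gradient, beside 43.6% of all genes, and 22 in the 50 µL library, beside 56.6%. In the 50 µL list cut to equal length 20 had one, beside 45.2%. All but Trim28, Atf7ip and Dnmt1 had a CpG ratio of at least 0.3 at the 5′-most start, which need not be the start with the peak. Of all protein-coding genes of that kind, 59.7% had a promoter peak without the gradient and 74.0% in the 50 µL library. Trim28, which docks KRAB domains, had fold enrichments of 4.77 and 3.63. Setdb1, the H3K9 methyltransferase, had 6.52 and 8.05, the second being the most significant of the list in the 50 µL library (−log10 q 79.0). The most significant without the gradient was Dnmt1, the maintenance DNA methyltransferase, with a fold enrichment of 11.3. Chd3, a remodelling subunit of NuRD, had no promoter peak without the gradient and a fold enrichment of 2.48 in the 50 µL library. The lowest unique share in the list was 61.7%, at Setdb1.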

How the data were processed

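The measurement was scFFPE-ATAC of mouse FFPE spleen, 1 library per condition. According to the methods, the authors mapped reads with BWA, removed duplicates and called peaks per library with MACS2. BWA, SAMtools and mm10 are also in the submitters' processing notes. A filter on mapping quality is not given in the sources used here. The deposited columns hold a display score, the fold enrichment at the summit (a ratio), −log10 of p and of q, and the summit offset. No read counts were used and depth is unknown. Here, peaks were overlapped by at least 1 bp with GENCODE M21 genes in Python 3.11.15 (pandas 2.3.3, SciPy 1.17.1). Clusters, C2H2 and KRAB patterns, CpG ratios and unique windows of 50 and 31 bases were computed from GRCm38.p6, and RefSeq gave promoter sequences. Overlap counting and the window search were tested on simulated data. No test between conditions was possible, and each count stands beside that over all protein-coding genes. Named genes were the 10 most significant promoter peaks per library, genes in 1 list or in none, shared promoters, the most gene-body peaks and the ends of each sequence range. Members, lists and motifs were chosen with earlier results of these data known.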

Additional observations from a re-analysis of the deposited data

How the results depend on the processing

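The lists carry 1 library per condition, no depth and no reads, so a missing peak means not detectable at this depth and not absent. No paired analysis was possible because each condition has 1 library and no result comes from a test. Of 43 alternatives, 39 stayed within 1.5 times of the reported count, with promoter counts of 23 to 32 without the gradient and 27 to 37 in the 50 µL library, including RefSeq starts, an alternative added after seeing the data, which gave 32 and 36. The 39 include stricter filters on the zinc finger exon count of 0, which could not change it and so say nothing about stability. Genes with a gene-body peak away from promoters in the 50 µL library fell from 13 to 5 at a fold enrichment of at least 4 and to 3 at equal list length. Genes with a zinc finger exon peak there went from 0 to 2 when the untranslated part was included. Shared promoter peaks fell from 29 to 17 of 47 under a reciprocal overlap of 50%; the cause was not tested.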

Other observations

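Zinc finger genes with other names lie in the same regions. On distal chromosome 2, of 26 such genes 1 had a promoter peak in each library, beside 1 and 3 of the 10 genes of the set. This was Gm14326, with fold enrichments of 8.51 and 6.47. Gm14401 and Gm14443 had none at unique shares of 78.9% and 78.4%. On chromosome 4, none of Gm13212, Zfp600, Rex2 and Zfp534 had a promoter peak in either library, and Gm13212 had a unique share of 69.9%. On proximal chromosome 17, 8 of 10 had one without the gradient and 10 of 10 in the 50 µL library. Zfp677, the first gene there, had fold enrichments of 6.75 and 5.50, and Zfp820 and Zfp758 had a peak in the 50 µL library only, at 4.42 and 3.23.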
